A study of Mus musculus with 30 samples.

Results

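FoxK2 was depleted in AML12 cells, an established line of mouse hepatocytes, and the transcriptome without insulin was compared with that of control cells. The comparison holds 8 of the 30 RNA-seq samples of the series: 4 FoxK2 KD and 4 Control samples, taken by their labels. FoxK2 KD cells had been transiently transfected with siRNA against Foxk2, and Control cells with a non-targeting siRNA. All 8 were serum-starved overnight and received vehicle but no insulin, which is called basal here. By its label a basal sample belongs to 0 h, whereas the text of the study describes vehicle for 6 h. In the rest of the series FoxK1, or both FoxK1 and FoxK2 (DKD), were depleted in the same line, and each genotype was also stimulated with 100 nM insulin for 6 h. Nothing in the labels ties the replicates to separate passages, so that p-values measure the spread between these samples, which may be technical. A transient knockdown leaves part of the mRNA in place, and these RNA data do not show how much protein remained.

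FoxK1 and FoxK2 are forkhead transcription factors, which bind DNA through a winged-helix domain and are best known for recruiting SIN3 and other corepressors to silence genes. The study describes them as factors that enter the nucleus upon insulin stimulation, opposite to the FoxO factors. By its account FoxK2 appeared to be more nuclear than FoxK1 already without insulin. Hepatocytes secrete complement components, protease inhibitors and acute-phase proteins, whose genes respond to interleukin-1 and interleukin-6 through NF-kB, STAT3 and C/EBP factors.

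Foxk2 mRNA was reduced in every FoxK2 KD sample. Its level was 149.7, 145, 133 and 134 CPM in Control replicates 1 to 4, and 46.3, 49.4, 50.6 and 42.9 CPM in FoxK2 KD replicates 1 to 4, where CPM is the gene's count scaled to a common library size with TMM normalization. The groups were far apart, and FoxK2 KD cells kept 33.7% of the Control mean. The log2 fold change was -1.57 (SE 0.09), with an adjusted p of 8.3e-15 in edgeR's quasi-likelihood test. Its paralogue Foxk1 was at 87.6, 83.5, 66.2 and 88.4 CPM in Control and at 83.7, 71.5, 66.4 and 58.0 CPM in FoxK2 KD samples. These ranges overlapped, and the log2 fold change of -0.23 (SE 0.11) did not pass the threshold (adjusted p = 0.441). Without Control replicate 3, the lowest of the Control samples, the Foxk1 value was -0.32 with an adjusted p of 0.196, past the threshold.

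The 8 libraries held 3289437 to 5668270 counts on genes. Control replicate 1 stood apart from the other 7 samples. Its root-mean-square difference in log2-CPM from them was 0.50 to 0.57, against 0.28 to 0.35 among the rest. The departures of Control replicate 1 from the mean of the 8 samples had Spearman correlations of 0.31 with GC content and -0.28 with transcript length across genes, which are not independent of each other. Such trends were not particular to it, as FoxK2 KD replicate 1 had correlations of -0.29 and 0.39. The counts of calls are therefore also given without it.

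Few genes passed the threshold in FoxK2 KD against Control cells, and most of them changed by small amounts. A gene that did not pass is not shown to be unchanged. An unadjusted p below 0.05 in edgeR's quasi-likelihood test was reached by 1272 genes. Of 11368 genes tested, 408 were called at an adjusted p (FDR) below 0.25, the threshold the study used for knockdowns at basal, which is 3.59% of the genes tested. Of these, 180 were upregulated (1.58%) and 228 downregulated (2.01%), with median log2 fold changes of 0.43 and -0.40, beside a median standard error of 0.13 over all genes. Only 24 upregulated and 19 downregulated genes had an FDR below 0.05, and 48 and 42 of the called genes changed by more than 1.5-fold. For 123 upregulated and 101 downregulated genes the FoxK2 KD and Control samples were fully separate, against 4.67% of all genes tested (8.62% where Control replicate 1 was left out). Fitting the 8 samples alone left 3 upregulated and 2 downregulated genes, which were C3, Serpina3g and Susd1, and Foxk2 and Lamb3. More genes were called in that fit once Control replicate 1 was also left out, as given in the last section. What lowered the count was not tested.

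The downregulated calls leaned on Control replicate 1, among other samples. It was the highest of the 4 Control samples for 183 of the 228 downregulated genes (80.3%, against 37.3% of all genes tested), and the lowest for 101 of the 180 upregulated genes (56.1%, against 36.1%). Without it, 126 genes were called upregulated and 84 downregulated. Of the original calls, 82 upregulated and 51 downregulated genes were called again in the same direction, while the sign was kept by 180 and 226. All 43 genes with an FDR below 0.05 were called without it. Leaving out Control replicate 3 or 4 instead raised the counts to 277 and 481, or to 385 and 594. Leaving out Control replicate 2 gave 425 downregulated genes. Leaving out FoxK2 KD replicate 2, 3 or 4 lowered the counts to between 85 and 93 upregulated and between 92 and 96 downregulated genes. The plot of calls by samples fitted shows these counts. Of 75 called genes named in this report besides Foxk2, 38 lost the call without Control replicate 1. Without FoxK2 KD replicate 1, 2, 3 or 4 the call was lost by 22, 33, 32 and 30 of them. A call kept without Control replicate 1 may thus be lost when another sample is left out.

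**Figure D1:**
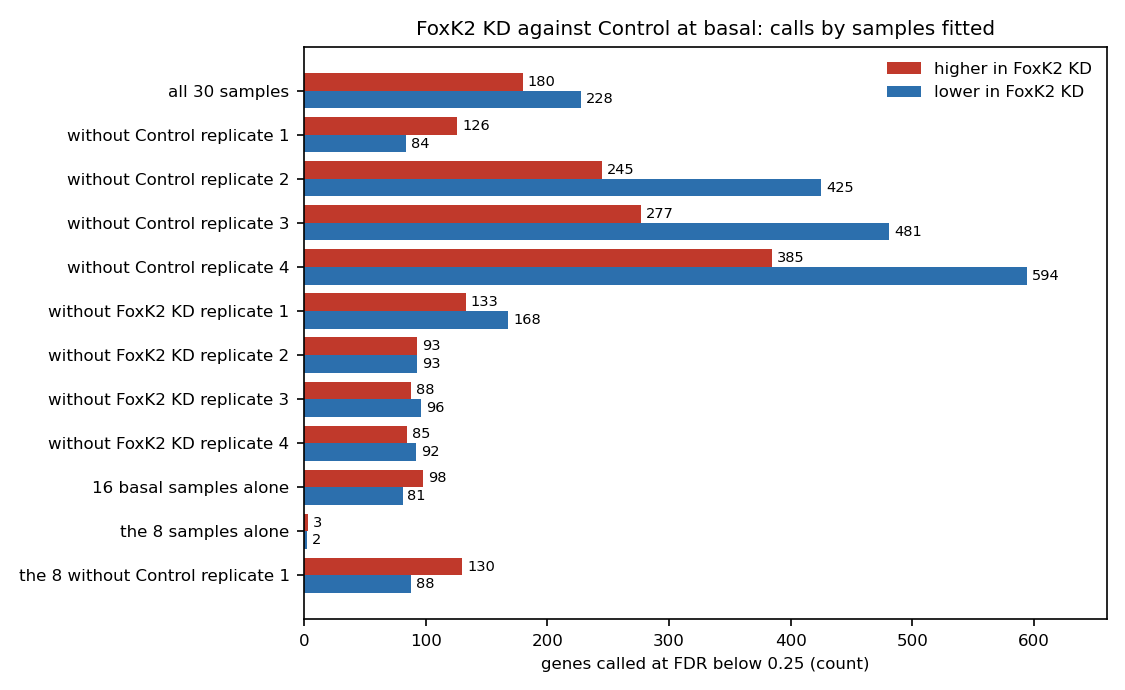
Number of genes called higher (red) and lower (blue) in FoxK2 KD than in Control at basal, at an FDR below 0.25, for each choice of samples in the fit. The bars reach 385 and 594 without Control replicate 4, fall to 126 and 84 without Control replicate 1, and are 3 and 2 where the 8 samples are fitted alone.

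Several genes of complement and the acute phase were among those upregulated in FoxK2 KD cells. C3, the central component of complement, was at 365, 259, 244 and 387 CPM in Control and at 688, 568, 678 and 535 CPM in FoxK2 KD samples. Every FoxK2 KD sample was above every Control sample, and the log2 fold change was 0.97 (SE 0.15, adjusted p = 0.000938), or 1.97-fold. Lcn2, which encodes lipocalin-2, a protein that sequesters bacterial siderophores, was at 32.6, 10.5, 14.9 and 24.3 CPM in Control and at 38.6, 50.1, 42.4 and 39.1 CPM in FoxK2 KD samples. Its log2 fold change of 1.05 (SE 0.22, adjusted p = 0.0213) was 1.32 without Control replicate 1, the highest Control sample. Saa3, a serum amyloid A protein, was at 13.3, 6.75, 7.69 and 14.6 CPM in Control and at 16.7, 20.5, 22.9 and 20.4 CPM in FoxK2 KD samples, again with no overlap, and its log2 fold change was 0.91 (SE 0.19, adjusted p = 0.0224).

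Protease inhibitors of the serpin family moved in the same direction. Serpina1a, an alpha-1-antitrypsin gene, was at 15.9, 10.8, 13.9 and 12.3 CPM in Control and at 18.8, 26.4, 20.1 and 21.3 CPM in FoxK2 KD samples (log2 fold change 0.73, SE 0.14, adjusted p = 0.0179). Its neighbour Serpina1b was at 39.7, 23.5, 27.3 and 28.7 CPM in Control and at 46.3, 53.4, 46.9 and 43.3 CPM in FoxK2 KD samples (0.68, SE 0.14, adjusted p = 0.0213). Serpina1a and Serpina1b are near-identical copies, so that the split of reads between them is uncertain. Serpina3g, a protease inhibitor from another cluster of similar copies, had the largest log2 fold change of the upregulated genes, with a rise from 1.70, 1.75, 1.74 and 2.50 CPM to 5.56, 5.65, 5.40 and 5.28 CPM (log2 fold change 1.45, SE 0.26, adjusted p = 0.00627). Lgals3bp, a secreted galectin-binding glycoprotein, rose from 189.7, 195, 185 and 214 CPM to 247, 268, 248 and 236 CPM (0.35, SE 0.07, adjusted p = 0.0213).

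**Figure D2:**
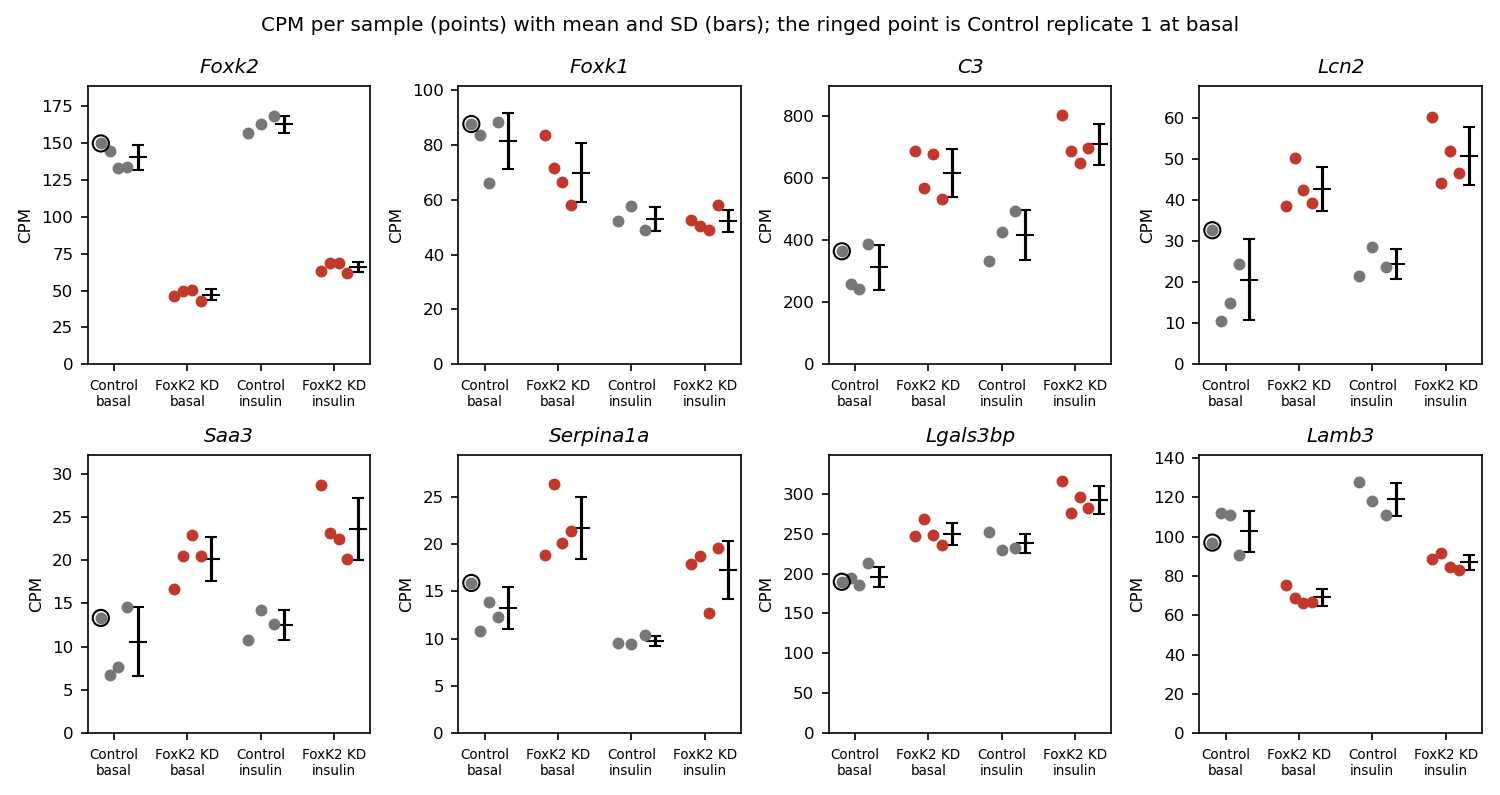
CPM of 8 genes in Control (grey) and FoxK2 KD (red) samples at basal and after insulin stimulation; each point is a sample, bars give the mean and SD (n = 4, and n = 3 for Control after insulin), and the ring marks Control replicate 1 at basal. Foxk2 and Lamb3 lie lower, and C3, Lcn2, Saa3, Serpina1a and Lgals3bp higher, in every FoxK2 KD sample than in every Control sample of the same condition, while Foxk1 overlaps.

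A wider list of 49 complement and acute-phase genes was drawn up after these values were seen, and is given as a description without a test. Of its members 20 were expressed well enough to be tested, 10 were upregulated (against 1.58% of all genes tested) and 0 downregulated, 10 did not pass the threshold, and 19 lay above 0, and their median log2 fold change was 0.48 beside -0.01 over all genes tested. Without Control replicate 1 the median was 0.49, and 8 of the 10 kept their call. The upregulated members include C3, Lcn2, Saa3, Serpina1a, Serpina1b and Serpina3g, which were seen before the list was drawn up. For that reason its count and median do not measure enrichment. Besides these genes, the upregulated members were C1ra (0.72), C4bp (0.39), Cfi (0.35) and Hpx (0.30). C1ra and Hpx were not called without Control replicate 1 (adjusted p = 0.369 and 0.463). After insulin C1ra, C4bp, Cfi and Hpx were not called (adjusted p from 0.746 to 0.94). Cfi, the protease that inactivates C3b, was at 168, 149, 154 and 157 CPM in Control and at 195, 184, 210.3 and 209 CPM in FoxK2 KD samples (SE 0.08, adjusted p = 0.0362). Members such as Crp (0.13), Cp (0.17), Lbp (0.14) and C2 (0.09) did not pass the threshold. Of 18 receptors and transcription factors that act upstream of these genes, also listed after seeing the data, 2 were upregulated and 0 downregulated, with a median of 0.01. They were Il1r1, the signalling receptor of interleukin-1, at 15.3, 18.3, 18.1 and 16.8 CPM in Control and 26.2, 21.7, 24.6 and 27.5 CPM in FoxK2 KD samples (log2 fold change 0.54, SE 0.13, adjusted p = 0.0413), and Stat3 (0.22, SE 0.08, adjusted p = 0.227), which was not called without Control replicate 1 (adjusted p = 0.401). The factors Cebpa (0.42, SE 0.17), Cebpb (0.13, SE 0.13), Cebpd (-0.49, SE 0.20), Rela (-0.21, SE 0.11) and Nfkb1 (-0.02, SE 0.08) did not pass the threshold, although Cebpa did without Control replicate 1 (0.65, adjusted p = 0.0971).

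Calls among inflammatory genes are set beside 1.58% of all genes tested called upregulated and 2.01% downregulated. Among 20 tested chemokines, NF-kB feedback and adhesion genes, 3 were upregulated and 0 downregulated, and these were Lcn2, Saa3 and Tnip1, which encodes an inhibitor of NF-kB signalling (log2 fold change 0.29, SE 0.09, adjusted p = 0.191). Tnip1 was not called without Control replicate 1 (adjusted p = 0.396). The chemokines Ccl2 (0.22), Cxcl1 (-0.23) and Cxcl5 (0.08), the feedback inhibitor Nfkbia (0.09) and the adhesion molecules Icam1 (0.16) and Vcam1 (0.03) did not pass the threshold, and the median of the list was 0.08. Of 16 tested interferon-stimulated genes, 0 were called in edgeR's test at an FDR below 0.25, with a median of -0.06. The list of plasma proteins and apolipoproteins shares C3 and Serpina1a with the genes above. Of its 12 tested members, 4 were upregulated (against 1.58% of all genes tested) and 0 downregulated, with a median of 0.31. Besides C3 and Serpina1a these were Rbp4, the carrier of retinol (0.33, SE 0.11, adjusted p = 0.191, and 0.411 without Control replicate 1), and Clu, which encodes the chaperone clusterin (0.29, SE 0.10, adjusted p = 0.227). For Clu, at 1643, 1122, 1389 and 1098 CPM in Control and 1431, 1649, 1745 and 1577 CPM in FoxK2 KD samples, Control replicate 1 lay among the FoxK2 KD samples.

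The promoters of these genes are shown because the study looked for forkhead motifs in the promoters of regulated genes. Each stretch runs from 250 bases before to 50 bases after the start site in RefSeq (build GRCm38.p6), 5′ to 3′ on the strand of the gene. Capitals mark matches on either strand to the forkhead core TAAACA or to TTGCNNAA, a motif of C/EBP factors that was added after the data were seen. An NF-kB motif, added in the same way, was also searched on both strands and had no match in these 5.
C3: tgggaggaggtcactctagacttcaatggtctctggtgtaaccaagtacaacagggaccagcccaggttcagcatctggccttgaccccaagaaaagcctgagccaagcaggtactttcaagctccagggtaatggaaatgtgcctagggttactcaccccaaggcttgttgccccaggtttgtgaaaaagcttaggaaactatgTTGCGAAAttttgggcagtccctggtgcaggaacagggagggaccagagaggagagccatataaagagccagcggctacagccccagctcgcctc
Lcn2: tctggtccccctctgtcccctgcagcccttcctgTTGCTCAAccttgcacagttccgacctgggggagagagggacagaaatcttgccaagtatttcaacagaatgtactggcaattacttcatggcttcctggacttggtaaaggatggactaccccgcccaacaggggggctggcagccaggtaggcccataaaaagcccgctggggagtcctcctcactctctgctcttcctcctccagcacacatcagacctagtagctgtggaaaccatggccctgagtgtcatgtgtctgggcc
Saa3: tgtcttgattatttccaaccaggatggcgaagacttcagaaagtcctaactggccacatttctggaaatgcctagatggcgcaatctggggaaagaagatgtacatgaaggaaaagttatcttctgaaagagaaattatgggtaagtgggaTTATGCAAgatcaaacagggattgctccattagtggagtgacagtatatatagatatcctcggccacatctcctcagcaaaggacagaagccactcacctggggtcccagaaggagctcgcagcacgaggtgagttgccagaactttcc
Serpina1a: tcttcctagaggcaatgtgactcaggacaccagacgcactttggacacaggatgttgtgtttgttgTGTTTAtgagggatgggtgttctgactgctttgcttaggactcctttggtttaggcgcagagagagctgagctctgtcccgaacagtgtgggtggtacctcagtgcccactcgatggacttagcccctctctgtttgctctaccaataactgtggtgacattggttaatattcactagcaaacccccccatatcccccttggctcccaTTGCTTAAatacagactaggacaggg
Lamb3: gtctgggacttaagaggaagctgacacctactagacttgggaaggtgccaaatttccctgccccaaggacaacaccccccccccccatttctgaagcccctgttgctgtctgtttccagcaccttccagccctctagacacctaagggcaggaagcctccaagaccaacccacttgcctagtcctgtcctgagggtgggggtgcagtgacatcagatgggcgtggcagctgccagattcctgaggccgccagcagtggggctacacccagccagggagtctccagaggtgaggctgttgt
These lie at chr17:57228087-57228386, chr2:32387690-32387989, chr7:46715627-46715926 and chr12:103863570-103863869 on the minus strand and at chr1:193301744-193302043 on the plus strand. In GENCODE, the Lamb3 and Lcn2 genes extend 94295 and 513 bases upstream of the RefSeq start, so that these windows do not cover every start site. C3, Lcn2, Saa3 and Serpina1a each held TTGCNNAA, starting at positions -45, -216, -99 and 25 from the start site, and Lamb3 held no match. Promoters not shown did not all follow this split by direction. Of other genes called at basal and after insulin, the upregulated Lgals3bp, Ctsf and Pcsk6 held no TTGCNNAA, while Serpina1b and Mitf did. Among downregulated ones Ly75 held it, and Sprr1a and Foxk2 did not. The forkhead core was present in Serpina1a, at position -184.

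Over the 8740 tested genes with a matched promoter, the longer forkhead motif GTAAACA stood in 2.56% of all promoters, in 4 of 141 promoters of upregulated genes (2.84%) and in 5 of 177 of downregulated genes (2.82%). The core TAAACA, which is contained in it, stood in 8.01%, 12.8% and 7.34%. The NF-kB motif stood in 1.60%, 2.13% and 1.69%. TTGCNNAA stood in 7.93% of all promoters, in 26 of 141 promoters of upregulated genes (18.4%) and in 15 of 177 of downregulated genes (8.47%). Among upregulated genes that were also called without Control replicate 1 it stood in 16 of 62 (25.8%). In the same 62, TAAACA stood in 9 (14.5%), GTAAACA in 2 (3.23%) and the NF-kB motif in 3 (4.84%). In 39 promoters of downregulated genes also called without that sample, TTGCNNAA stood in 7.69%, TAAACA in 5.13%, GTAAACA in 0% and the NF-kB motif in 2.56%. The median GC content of the promoters was 59.3% for upregulated genes, 62% for downregulated genes and 61.3% for all tested, and the part of base composition in these shares was not tested. A letter match is a description of the sequence and not a binding site.

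Lamb3, the beta-3 chain of laminin-332 in the basement membrane, was the downregulated gene with the smallest p after Foxk2 itself. It was at 97.0, 112, 111 and 90.9 CPM in Control and at 75.3, 68.7, 66.1 and 66.6 CPM in FoxK2 KD samples. The groups did not overlap, and the log2 fold change of -0.57 (SE 0.08, adjusted p = 0.000152) passed the threshold whichever sample was left out, with an adjusted p of 0.000113 without Control replicate 1. The list of matrix and adhesion genes did not hold Lamb3. Of its 19 tested members 2 were upregulated and 0 downregulated, against 1.58% and 2.01% of all genes tested. These were Fn1, which encodes fibronectin (0.43, SE 0.13, adjusted p = 0.142), and Thbs1, which encodes thrombospondin-1 (0.39, SE 0.12, adjusted p = 0.16), and neither was called without Control replicate 1 (adjusted p = 0.396 and 0.295). Sprr1a, a cornified-envelope precursor, fell from 9.64, 8.25, 9.43 and 9.82 CPM to 4.01, 4.94, 6.48 and 5.50 CPM (-0.80, SE 0.19, adjusted p = 0.0406). Spp1, which encodes the secreted protein osteopontin, was upregulated from 1080.0, 944, 919 and 1228 CPM to 1342, 1462, 1383 and 1505 CPM (0.45, SE 0.12, adjusted p = 0.0889).

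The same knockdown was measured after 6 h of insulin stimulation in separate samples (4 FoxK2 KD, 3 Control). Their levels did not enter the basal fold changes, but the 2 comparisons came from 1 model and share its normalization and its estimate of the spread. There 27 genes were called (0.238% of those tested), 19 up (0.167%) and 8 down (0.0704%). Of these 27, 16 had also been called at basal in the same direction (59.3% of the insulin calls and 3.92% of the basal calls), and 0 in the opposite direction. They were Foxk2, Lamb3, Sprr1a, Cd109, Slc4a11 and Ly75 on the downregulated side, and C3, Lcn2, Saa3, Serpina1a, Serpina1b, Lgals3bp, Ctsf, Pcsk6, Mitf and Deptor on the upregulated side. After insulin, C3 was at 333, 426 and 494 CPM in Control and at 803, 689, 649.5 and 696 CPM in FoxK2 KD samples (log2 fold change 0.77, SE 0.17, adjusted p = 0.0852). Lcn2 was at 21.4, 28.4 and 23.6 CPM in Control and at 60.2, 44.0, 51.9 and 46.6 CPM in FoxK2 KD samples (1.06, SE 0.24, adjusted p = 0.088). Lamb3 was at 128, 118 and 111 CPM in Control and at 88.6, 91.6, 84.6 and 83.2 CPM in FoxK2 KD samples (-0.45, SE 0.09, adjusted p = 0.0268). For each of these the samples of the 2 genotypes were separate in both conditions, as they were for 12 of the 16 genes.

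The remaining genes of this group have varied roles. Ctsf encodes the lysosomal protease cathepsin F and was at 96.1, 90.3, 86.8 and 87.0 CPM in Control and at 109, 113, 106 and 117 CPM in FoxK2 KD samples at basal (log2 fold change 0.31, SE 0.08, adjusted p = 0.0663). Mitf, a transcription factor of the family that controls lysosomal genes, was at 8.79, 6.75, 8.93 and 8.57 CPM in Control and 11.7, 12.9, 11.7 and 11.6 CPM in FoxK2 KD samples (0.54, SE 0.16, adjusted p = 0.136). Pcsk6 is a proprotein convertase (0.63, SE 0.16, adjusted p = 0.0781), and Deptor, which encodes an inhibitor of mTOR, rose by less (0.27, SE 0.09, adjusted p = 0.182). Cd109, a membrane protein that binds TGF-beta, fell by 0.47 on the log2 scale (SE 0.14, adjusted p = 0.145), the transporter Slc4a11 by 0.26 (SE 0.09, adjusted p = 0.2) and the endocytic receptor Ly75 by 0.34 (SE 0.11, adjusted p = 0.201). At basal, 13 of the 16 were called without Control replicate 1, and Cd109, Deptor and Slc4a11 were not.

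**Figure D3:**
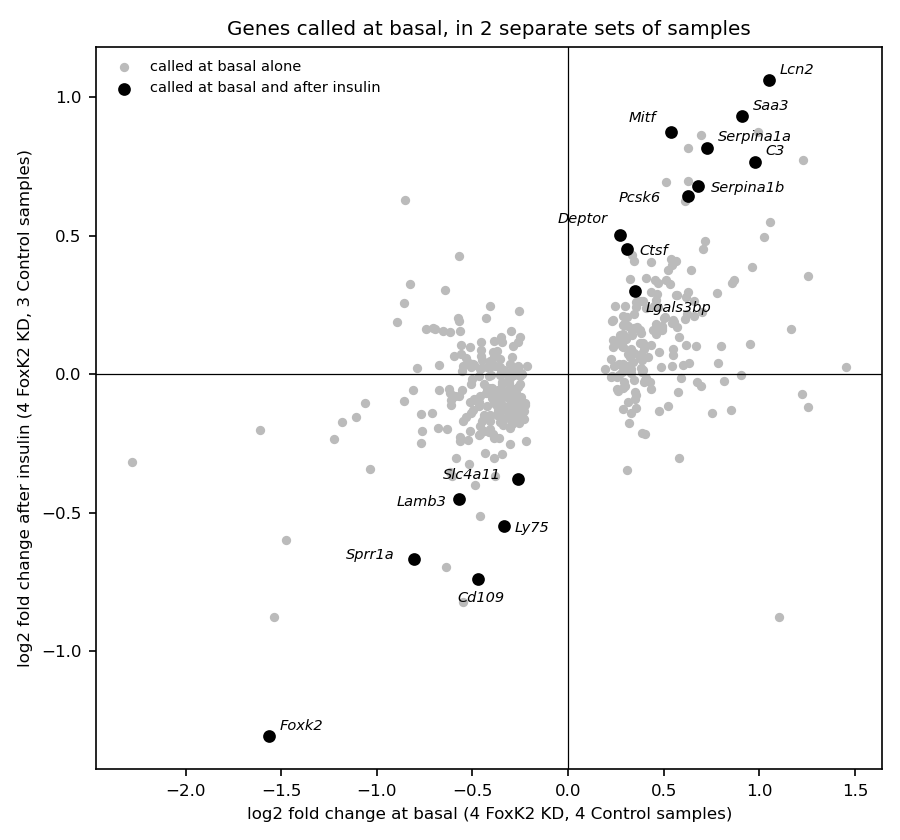
Log2 fold change of FoxK2 KD over Control at basal (horizontal) and after insulin stimulation (vertical) for the 408 genes called at basal; black points are the 16 genes also called after insulin. The black points have the same sign on both axes, while the medians after insulin of all points are 0.14 for upregulated and -0.09 for downregulated genes.

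The genes called at basal were also followed after insulin, where smaller values arise in part because the genes were selected for passing at basal. Of the 180 genes upregulated at basal, 140 (77.8%) had the same sign after insulin, where the median was 0.14, and of the 228 downregulated genes 163 (71.5%), with a median of -0.09, beside 50% of all tested genes in either direction. For genes called both with and without Control replicate 1, these shares were 86.6% and 76.5%. The interaction of knockdown and insulin, which tests the difference itself, gave 0 called genes in edgeR's test at an FDR below 0.25, with 625 of 11368 genes at an unadjusted p below 0.05. Serpina3g, at an insulin log2 fold change of 0.03, was thus not shown to differ between the conditions, and the same holds for Il1r1 (0.03), both with an adjusted interaction p of 0.883 in edgeR's quasi-likelihood test, the smallest over the genes called at basal.

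Further genes with large changes were mostly weakly expressed. On the upregulated side Susd1, a sushi-domain protein, was at 4.82, 4.50, 3.97 and 3.21 CPM in Control and at 8.33, 8.71, 7.78 and 9.01 CPM in FoxK2 KD samples (log2 fold change 1.06, SE 0.23, adjusted p = 0.0254). Dusp5, a nuclear phosphatase of ERK, was at 1.98, 2.00, 0.496 and 2.32 CPM in Control and at 3.09, 4.47, 3.67 and 4.40 CPM in FoxK2 KD samples (1.17, SE 0.31, adjusted p = 0.0878). Dlc1 (1.26, SE 0.35), Arhgef6 (1.02, SE 0.28), the zinc-finger gene Zfp112 (1.22, SE 0.41), the mucin Muc5b (0.95, SE 0.24) and the TGF-beta pathway inhibitors Ldlrad4 (1.10, SE 0.33) and Bambi (0.90, SE 0.28) completed the 12 named upregulated genes, with adjusted p from 0.0641 to 0.211. Of these last 6, Dlc1, Zfp112, Ldlrad4 and Bambi were not called without Control replicate 1.

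On the downregulated side Control replicate 1 set the size of several changes. Hmgn5, which binds nucleosomes, was at 94.1, 50.8, 39.7 and 32.7 CPM in Control and at 30.6, 25.7, 21.2 and 22.4 CPM in FoxK2 KD samples. Its log2 fold change of -1.11 (SE 0.23, adjusted p = 0.0213) was -0.71 (adjusted p = 0.093) without Control replicate 1. Rps21, a protein of the small ribosomal subunit, was at 298, 188, 194 and 149 CPM in Control and at 117, 128, 120.2 and 120.5 CPM in FoxK2 KD samples. Its log2 fold change was -0.76 (SE 0.16, adjusted p = 0.0213), and -0.53 (adjusted p = 0.103) without that sample. Ribosomal protein genes have processed copies elsewhere in the genome, so that such counts are uncertain. The keratin Krt10 (-0.86, SE 0.20), the ribonuclease subunit Rpp21 (-1.23, SE 0.35) and the immunoglobulin-domain protein Jam2 (-0.64, SE 0.19) were also called either way. So was Igsf11, of the same domain family, but its log2 fold change of -0.62 (SE 0.14) was -0.31 without Control replicate 1, which was at 294 CPM against 135 to 174 CPM in the other Control samples. Ctf1, which encodes the cytokine cardiotrophin-1 (-0.83, SE 0.26), Coq4, which acts in coenzyme Q synthesis (-0.71, SE 0.18), Ccdc51 (-0.63, SE 0.18) and the acyl-CoA synthetase gene Acsbg1 (-0.62, SE 0.19) were not called without it (adjusted p from 0.335 to 0.512).

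Among the cell-cycle genes, 2 G1 cyclins were upregulated and 6 genes of replication and mitosis downregulated. Ccnd1 was at 340.2, 455, 403 and 459 CPM in Control and at 514, 533, 518 and 550.4 CPM in FoxK2 KD samples (log2 fold change 0.35, SE 0.08, adjusted p = 0.0254). Ccnd2 was at 56.4, 79.5, 81.4 and 92.1 CPM in Control and at 117, 97.4, 108 and 115 CPM in FoxK2 KD samples (0.49, SE 0.10, adjusted p = 0.0224). Both encode D-type cyclins, which drive entry into the cell cycle, and both were called without Control replicate 1, but their log2 fold changes after insulin were -0.06 and 0.16 and did not pass the threshold. They were the 2 called genes of 22 tested G1 cyclins and CDK inhibitors, against 1.58% of all genes tested called upregulated. The median of this list was 0.04, and Cdkn2a was called upregulated as well without Control replicate 1 (0.56, adjusted p = 0.18). Of 25 tested mitotic genes 0 were upregulated and 3 downregulated (Top2a, Aurkb and Plk1), and of 25 tested replication genes 0 and 3 (Cdt1, Rrm2 and Lig1), with medians of -0.10 and 0.01, against 2.01% of all genes tested called downregulated. Of these 6 genes, Top2a alone, at 703, 783, 803 and 659.6 CPM in Control and 668, 557, 582 and 613 CPM in FoxK2 KD samples, was called without Control replicate 1 (adjusted p = 0.127). The markers of cycling cells Mki67 (0.02) and Pcna (0.02) did not pass the threshold.

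Calls among metabolic genes are set beside 1.58% of all genes tested called upregulated and 2.01% downregulated. Those named below as downregulated lost the call without Control replicate 1. Of 26 tested glycolytic genes 2 were downregulated, and both had Control replicate 1 far above the other samples: Ldha, which forms lactate, was at 1059, 670.4, 661 and 681 CPM in Control and at 579, 570.4, 610.3 and 618 CPM in FoxK2 KD samples (log2 fold change -0.37, SE 0.10, adjusted p = 0.105), and Aldoa, an aldolase, had an adjusted p of 0.196. Without that sample neither was called (adjusted p = 0.503 and 0.785), and the median of the list moved from -0.12 to -0.03. Of 24 genes of cholesterol synthesis and uptake 3 were downregulated (Lss, Acat2 and Hmgcs1) and 1 lay above 0, with a median of -0.11. Without Control replicate 1 the median was -0.10 and 0 of the 3 kept the call. Of 70 tested nuclear-encoded respiratory chain genes 2 were upregulated (Ndufs8 and Ndufa11) and 0 downregulated, of 23 fatty acid oxidation genes 1 was downregulated (Acadvl), of 23 fatty acid synthesis genes Gpam was upregulated and Scd1 downregulated, and 0 of these kept the call. Scd2, a desaturase like Scd1, was not called with all samples but was without that sample (-0.20, adjusted p = 0.247). Of 20 tested TCA cycle genes 0 were called, with a median of -0.04.

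Among the redox genes, Gclc, the catalytic subunit of the rate-limiting enzyme of glutathione synthesis, was at 737, 965, 880.5 and 951 CPM in Control and at 1105, 1175, 1066 and 1130.4 CPM in FoxK2 KD samples (log2 fold change 0.34, SE 0.07, adjusted p = 0.0254). Over all genes tested, 1.58% were called upregulated and 2.01% downregulated. Gclc was 1 of 3 upregulated genes among 22 tested glutathione and NRF2 target genes, with 0 downregulated and a median of 0.11. The others were the glutathione transferase Gsta3 (0.31, SE 0.09, adjusted p = 0.142) and the peroxidase Gpx4 (0.38, SE 0.12, adjusted p = 0.163), of which Gpx4 was not called without Control replicate 1. The mitochondrial gene mt-Nd6, a subunit of complex I, was at 389, 291, 293 and 344 CPM in Control and at 250.4, 269.9, 213 and 187 CPM in FoxK2 KD samples (-0.52, SE 0.11, adjusted p = 0.0229), and was the 1 called gene of 13 tested mitochondrial transcripts, whose median was -0.25. Without Control replicate 1 this median was -0.29 and mt-Nd5 was also called (-0.36, adjusted p = 0.232). After insulin the median of the list was 0.03, and mt-Nd6 and Gclc were both at 0.04 and not called. The interaction of knockdown and insulin did not pass the threshold for either gene (adjusted p = 0.883 in edgeR's quasi-likelihood test). mt-Nd6 lies on the opposite strand from the other mitochondrial protein genes, and the strand setting of the counting is not given in the sources used here, so that reads from the 2 strands cannot be told apart.

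**Figure D4:**
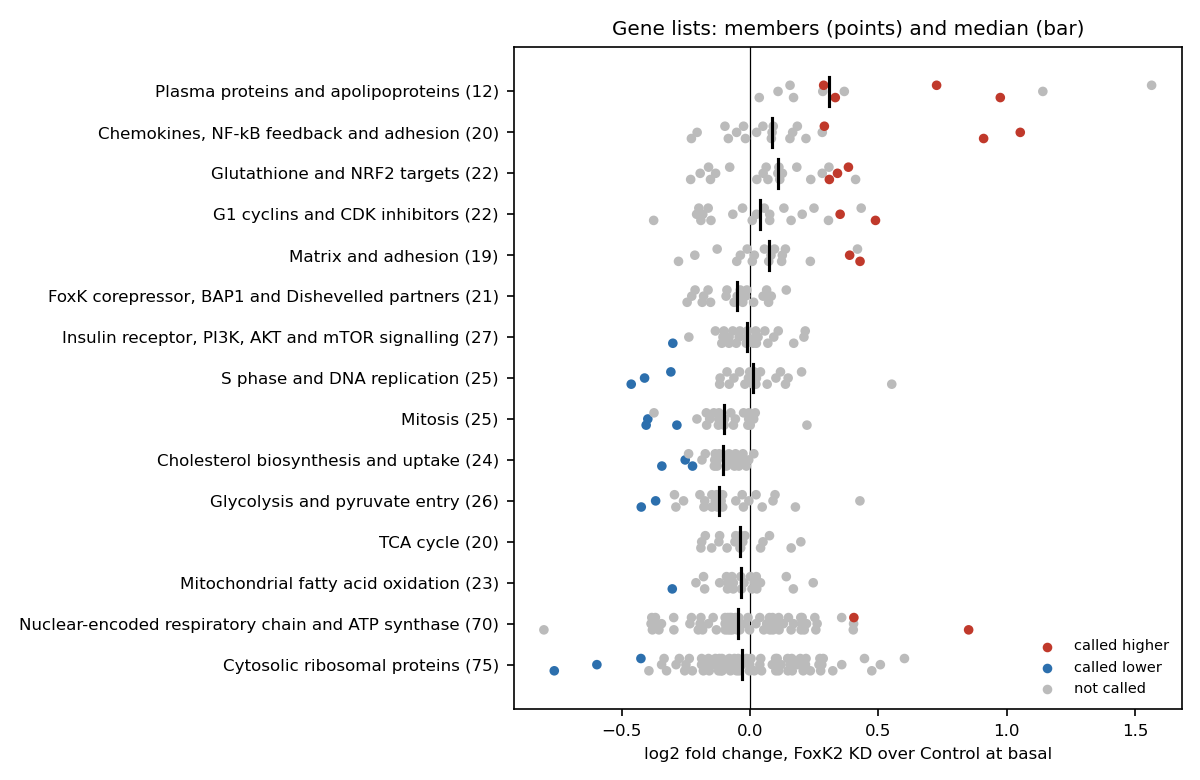
Log2 fold change of FoxK2 KD over Control at basal for the tested members of 15 gene lists (number tested in parentheses); points are genes, red and blue where called higher and lower, and black bars are medians. The plasma protein list has its median at 0.31 and 4 red points, whereas the other lists plotted have medians between -0.12 and 0.11. Of lists not plotted, the mitochondrial transcripts had a median of -0.25. A list of 6 genes that the study named as upregulated in DKD cells had a median of 0.35, and 6 named as downregulated -0.12.

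Calls among genes of insulin signalling and of the FoxK complexes are set beside 3.59% of all genes tested called in either direction. The mTOR inhibitor Deptor, upregulated at basal (log2 fold change 0.27, SE 0.09), was not on the list that follows. Of 27 tested genes of the insulin receptor, PI3K, AKT and mTOR pathway, 0 were upregulated and 1 downregulated, with a median of -0.01. This was Eif4ebp1, the translation repressor 4E-BP1, at 37.7, 42.5, 37.2 and 45.0 CPM in Control and 30.6, 33.9, 31.8 and 35.8 CPM in FoxK2 KD samples (log2 fold change -0.30, SE 0.09, adjusted p = 0.16). Of 21 tested corepressor, BAP1 and Dishevelled partners of FoxK factors, 0 were called in edgeR's test, the smallest p belonging to Hdac2 (-0.15, SE 0.07, adjusted p = 0.398), although Mbd5 was called downregulated without Control replicate 1 (-0.37, adjusted p = 0.249). Of 18 tested forkhead genes the called ones were Foxk2 and Foxa1, a pioneer factor of the liver (-0.39, SE 0.13, adjusted p = 0.191), which was not called without Control replicate 1 (adjusted p = 0.293). Of 21 tested ERK feedback and immediate early genes Dusp5 and Spred1 were upregulated and Junb and Fosl1 downregulated, of which Dusp5 alone was called without Control replicate 1 (adjusted p = 0.297, 0.491 and 0.427 for Spred1, Junb and Fosl1). Of 31 tested autophagy genes Wdr45 was upregulated and Gabarap downregulated. Of 22 tested ATF4 target and amino acid genes, Slc3a2, a chain of amino acid transporters, was downregulated (-0.37, SE 0.09, adjusted p = 0.0477). Of 75 tested cytosolic ribosomal protein genes 3 were downregulated (Rps21, Rps15a and Rps28), and Rps15a and Rps28 were not called without Control replicate 1 (adjusted p = 0.593 and 0.509). Of the tested apoptosis regulators (24), ER chaperones (22), clock genes (17) and hypoxia targets (14), 0 were called in edgeR's test, while the death receptor gene Tnfrsf10b was called upregulated without Control replicate 1 (0.30, adjusted p = 0.16).

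FoxK2 KD was also compared directly with FoxK1 KD at basal, a contrast without Control samples in which 16.5% of genes were called (8.54% higher and 7.96% lower in FoxK2 KD cells). C3 was higher in FoxK2 KD cells (log2 fold change 0.79, adjusted p = 0.0017), as was Lcn2 (0.86, adjusted p = 0.019), while Lamb3 was lower (-0.45, adjusted p = 0.00074). Serpina1a (-0.11, adjusted p = 0.71) and Serpina1b (0.11, adjusted p = 0.71) did not pass the threshold in this contrast. Other genes lay on the opposite side of FoxK1 KD than of Control: the upregulated Ccnd1 (-0.33, adjusted p = 0.0095) and Thbs1 (-1.06, adjusted p = 1.2e-07) were lower in FoxK2 KD than in FoxK1 KD cells, and the downregulated Scd1 (0.64, adjusted p = 2.2e-06) and Sprr1a (0.67, adjusted p = 0.096) were higher. Depletion of FoxK2 on top of FoxK1 was read from DKD against FoxK1 KD cells at basal, which shares no sample with the FoxK2 KD and Control comparison. Foxk1 itself was higher in DKD than in FoxK1 KD cells (means of 46.5 and 36.8 CPM, log2 fold change 0.32, SE 0.13, adjusted p = 0.058). The 2 groups thus differed in Foxk1 as well as Foxk2 mRNA, and the part of each was not tested. In this contrast 50.3% of all genes were called, 26.4% higher and 23.9% lower. Of the 180 upregulated genes 75 (41.7%) were called higher and 19 (10.6%) lower, and of the 228 downregulated genes 71 (31.1%) were called lower and 48 (21.1%) higher. Of the 16 genes called at basal and after insulin, 11 were called in the same direction and 0 in the opposite one. C3 rose by 0.83 on the log2 scale (adjusted p = 0.00022) and Lcn2 by 1.27 (adjusted p = 8.9e-05), whereas Lamb3 was at 0.09 (adjusted p = 0.42).

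The identity of the cells was checked with marker genes. Of 14 hepatocyte markers 11 were tested, among them Hnf4a, Krt8 and Krt18, but Apoa1, Apoa2 and Fgb had 25, 7 and 33 counts over all 8 samples together, and Alb, which encodes albumin, had 506. Hepatocyte markers summed to between 2185 and 2729 CPM in Control and between 2496 and 2701 CPM in FoxK2 KD samples. Of the 11 tested, 1 was called (Serpina1a), against 3.59% of all genes tested. Of 8 stellate cell or fibroblast markers and 6 endothelial markers 0 were expressed well enough to be tested. Of 7 macrophage markers 2 were tested (Csf1r and Cd14), with Adgre1, Clec4f and Lyz2 at 0 counts. They summed to between 105 and 144 CPM in Control and between 102 and 131 CPM in FoxK2 KD samples, and neither was called. Of 6 cholangiocyte markers 5 were tested, Spp1 was upregulated and Krt19 downregulated (not called without Control replicate 1, adjusted p = 0.676), and they summed to between 1692 and 2154 CPM in Control and between 1966 and 2230.3 CPM in FoxK2 KD samples. In RNA from whole cultures, fewer cells of a type and less RNA per cell cannot be told apart.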

How the data were processed

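RNA-seq counts of 8 samples (4 FoxK2 KD, 4 Control, basal) were compared within all 30 samples. The authors deposited raw counts of reads per gene for 49089 Ensembl identifiers in each sample. The submitters' processing notes name CASAVA 1.8, STAR 2.4.2a, featureCounts and GRCm38 p4, while the strand setting and the annotation are not given in the sources used here. Symbols and coordinates came from GENCODE M21 (48349 identifiers matched) and promoters from RefSeq.

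From these counts, genes were kept by filterByExpr (11368), normalized by TMM and tested in a model of 8 groups with edgeR 4.0.16 (glmQLFit, glmQLFTest) under R 4.3.3, with Benjamini-Hochberg adjustment over all genes tested and a call at an FDR below 0.25. The standard error was the absolute log2 fold change over the square root of F. Log2-CPM used a prior count of 2. No pair of samples of a group agreed within sampling noise (lowest chi-square per degree of freedom 2.03). The fit was tested on simulated data.

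Members and gene lists were chosen with earlier results of these data known. Named were Foxk2, Foxk1, up to 4 called members of each list (by p), and, from called protein-coding genes whose samples did not overlap and whose average log2-CPM reached 1, the 12 that rose and 12 that fell most. The 16 genes called in 2 conditions, Cfi, Il1r1, the 2 lists of complement and acute-phase genes, their members, and other uncalled genes given for context were added after their values were seen. Alternatives were DESeq2 1.42.0, limma-voom (limma 3.58.1), RLE factors, 2 count filters, fewer samples, a replicate block, removal of the trend with GC content and length, other thresholds, and leaving out each sample.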

Additional observations from a re-analysis of the deposited data

Results flagged for a closer look

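In 13 of 186 groups of 4 samples (93 genes, FoxK2 KD and Control at basal), the highest or lowest sample lay apart from the other 3, where chance gives about 1 in 20 groups. In 5 of them Control replicate 1 was the highest Control sample: Coq4 at 65.5 CPM (others 30.02 to 35.5), Ccdc51 at 45.6 CPM (20.1 to 21.8), Ldha at 1059 CPM (661 to 681), Aldoa at 3524 CPM (1663 to 1953) and Slc3a2 at 680 CPM (490.5 to 519.6). Of these 5 genes, Slc3a2 alone was called without that sample. Among the other Control samples, Serpina3g was at 2.50 CPM in replicate 4 (others 1.70 to 1.75), Cd109 at 18.04 CPM in replicate 4 (20.1 to 20.4), Fosl1 at 5.95 CPM in replicate 3 (10.9 to 11.8), Bhlhe40 at 191.5 CPM in replicate 3 (195.3 to 195.9) and Mitf at 6.75 CPM in replicate 2 (8.57 to 8.93). Among FoxK2 KD samples, Tnip1 was at 81.9 CPM in replicate 2 (91.7 to 92.6), Rps28 at 12.5 CPM in replicate 3 (7.47 to 8.001) and Mitf at 12.9 CPM in replicate 2 (11.65 to 11.73). What set these samples apart was not tested.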

How the results depend on the processing

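The 180 genes upregulated in FoxK2 KD against Control at basal and the 228 genes downregulated in FoxK2 KD against Control at basal depended on which samples were fitted, and the cause was not tested. Leaving out each replicate in turn gave 85 to 385 upregulated and 84 to 594 downregulated genes. The 8 samples alone gave 3 and 2, the 16 basal samples 98 and 81, and the 8 samples without Control replicate 1, a choice made after seeing the data, 130 and 88. Removing the trend with GC content and length gave 280 and 417, and a minimum of 1 count in any sample 198 and 402. By construction, an FDR below 0.05 left 24 and 19 genes, and a fold change above 1.5 left 48 and 42. DESeq2 gave 168 and 223, limma-voom 187 and 184, RLE factors 180 and 228, and at least 10 counts in every sample 196 and 216, all within 1.5 times the reported counts.

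The replicate numbers did not pair the samples: the deviations of samples with the same number had correlations of -0.205 to -0.00677, and 0 of 8 samples correlated best with its own number. With the replicate number as a block, 146 genes were upregulated and 174 downregulated, and with the block and the GC content and length trend removed together, 263 and 343.

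Leaving out each replicate, Foxk2 kept its call at log2 fold changes of -1.60 to -1.52, and Foxk1 lay between -0.33 and -0.15, past the threshold without Control replicate 3 alone (-0.32). Of 75 further named genes that were called, 4 (C3, Lamb3, Serpina3g and Susd1) were called in the same direction under every other fit of the counts that tested them. Cd14, which was not called (0.02), ranged from -0.048 to 0.14 over the samples left out, and was -0.048, -0.02, -0.02 and -0.01 without Control replicate 2, Control replicate 4, FoxK2 KD replicate 3 and FoxK2 KD replicate 4. With 3289437 to 5668270 counts per sample, genes near 1 CPM rest on few counts.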
